A study of Mus musculus with 56 samples.

Results

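The 10 genes described here are expressed in the endothelial cells that line blood vessels: Pecam1, Cdh5, Esam, Kdr, Flt1, Tek, Tie1, Eng, Cd34 and Vwf. They were chosen by name as familiar markers of that cell type, not by a cut on measured values, though earlier results of these data were known. They are 10 of the 12508 genes tested. A gene was represented by the probe set, the group of array probes that targets its transcript, with the highest mean over all 56 arrays. All 10 passed the filter on dim probe sets, which asked for 6 or more arrays with a value over 5.83, the median of the whole table. Vwf exceeded it on 19 of the 56 arrays, Tek on 30 and Tie1 on 43; the other members exceeded it on all 56. On the gene models of GRCm38.p6, Pecam1 lies at chr11:106654213-106715281, Cdh5 at chr8:104101613-104144504, Esam at chr9:37528089-37538319, Kdr at chr5:75932827-75979072 and Flt1 at chr5:147561604-147726438. Tek lies at chr4:94739086-94874976, Tie1 at chr4:118471191-118489849, Eng at chr2:32646595-32682669, Cd34 at chr1:194938821-194961292 and Vwf at chr6:125552948-125686679.

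The data are expression arrays of 56 mammary tumors that grew from p53null mammary fragments placed in the inguinal fat pads of female BALB/c hosts, whose own mammary epithelium had been taken out at 3 weeks of age. Only the host mouse was irradiated, or sham-irradiated, 3 days before the transplantation; the grafted fragments were not. Hosts were heterozygotes for Tgfb1, which encodes transforming growth factor beta 1, a secreted regulator of growth and matrix, or wild type. All hosts received the same kind of p53null graft, so no group carries a graft with the tumor suppressor intact, and no radiation dose appears in the sources used. There were 18 tumors from irradiated heterozygote hosts (Het_irradiated), 6 from sham-irradiated heterozygote hosts (Het_sham), 23 from irradiated wild-type hosts (WT_irradiated) and 9 from sham-irradiated wild-type hosts (WT_sham). With 1 array per tumor, precision rests on the number of tumors. Tumors are named by their group and the replicate number of the labels.

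New blood vessels form when endothelial cells answer to vascular endothelial growth factors, read by the receptors KDR and FLT1, and mature when angiopoietins act on the TEK receptor and its partner TIE1. The cells are joined to each other by adhesion proteins such as VE-cadherin, the product of Cdh5. The vessels of a transplanted tumor are usually built largely by host cells. In RNA from a whole tumor, fewer endothelial cells and less RNA of a gene per endothelial cell cannot be told apart.

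The sequence before the transcription start is shown for Tie1, Cd34 and Eng, 3 of the 6 members with such a window. Proteins of the ETS family, among them ERG and FLI1, are known regulators of endothelial genes and bind sites built on the core GGAA. Each line gives the 250 bases before the start in RefSeq annotation of GRCm38.p6, 5′ to 3′ on the strand of the gene, with every GGAA or its reverse complement TTCC in capitals. The window of Tie1 is chr4:118489850-118490099 on the minus strand, that of Cd34 chr1:194938571-194938820 on the plus strand and that of Eng chr2:32646345-32646594 on the plus strand.
Tie1: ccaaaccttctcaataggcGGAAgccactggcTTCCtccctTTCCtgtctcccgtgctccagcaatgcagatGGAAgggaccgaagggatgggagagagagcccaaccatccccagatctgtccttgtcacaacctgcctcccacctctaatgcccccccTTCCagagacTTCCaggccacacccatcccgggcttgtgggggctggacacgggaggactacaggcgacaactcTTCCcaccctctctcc
Cd34: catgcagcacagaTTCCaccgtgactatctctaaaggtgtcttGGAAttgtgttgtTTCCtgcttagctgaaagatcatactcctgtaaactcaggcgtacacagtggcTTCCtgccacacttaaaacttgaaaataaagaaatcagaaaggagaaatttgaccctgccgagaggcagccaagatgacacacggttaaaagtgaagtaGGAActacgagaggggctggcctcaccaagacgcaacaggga
Eng: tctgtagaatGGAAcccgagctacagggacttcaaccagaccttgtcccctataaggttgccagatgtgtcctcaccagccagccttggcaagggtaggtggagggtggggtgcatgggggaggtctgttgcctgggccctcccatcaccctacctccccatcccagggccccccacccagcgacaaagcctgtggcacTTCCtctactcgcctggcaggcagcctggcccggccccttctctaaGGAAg
These windows held 7 matches to the core in Tie1, 5 in Cd34 and 3 in Eng, on either strand, where the median over 32851 such windows of mouse genes was 3. Windows were also available for Kdr, Flt1 and Tek, with 4, 4 and 2 matches, and each of these lies wholly or partly inside a longer gene model of the same annotation. The core is common: 6 of the 6 member windows and 93.4% of all windows held it. The longer form AGGAAG, which contains the core, was found in 4 of 6 member windows (Flt1, Tie1, Cd34 and Eng) and in 29.5% of all windows. The GC box CCGCCC was found in 2 of 6, those of Kdr and Flt1, against 32.7% of all windows. CACCC, a motif of KLF proteins, was in 5 of 6 against 52%. Another ETS form, CCGGAA, was in 1 of 6 against 12%. The SOX motif AACAAT and the TATA box TATAAA were each in 1 of 6, against 9.42% and 12.4%. The GATA motif GATAA and the FOX motif GTAAACA were in 0 of 6, against 22.6% and 3.17%. A match is a string of letters and not a measured binding site.

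Some facts of the arrays touch the results. The array medians were 5.57 to 5.71 in heterozygote hosts and 5.92 to 6.00 in wild-type hosts, so the arrays of the host genotypes appear to have been normalized apart, and levels are compared only within a genotype. The 18S ribosomal control was 12.07 ± 0.71 (SD, n = 18) in Het_irradiated and 11.75 ± 1.01 (SD, n = 6) in Het_sham tumors. In WT_irradiated tumors this control was 12.74 ± 0.90 (SD, n = 23) and in WT_sham tumors 11.28 ± 1.78 (SD, n = 9), with 2 and 4 arrays below 11. The signal difference between the 3′ and 5′ ends of control transcripts, a sign of RNA quality, was 0.27 ± 0.11 (SD, n = 18) in Het_irradiated and 0.40 ± 0.17 (SD, n = 6) in Het_sham tumors, and 0.22 ± 0.16 (SD, n = 23) and 0.21 ± 0.03 (SD, n = 9) in WT_irradiated and WT_sham tumors. The epithelial markers, which define the labelled mammary tumor, were all measured (8 of 8), and their mean level ran from 7.31 to 13.15 (log2) over the 4 groups.

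A single tumor stood far apart in the endothelial genes. WT_sham replicate 46 had the highest value of all 32 tumors of wild-type hosts in 10 of the 10 genes. Against the median of the other 8 WT_sham tumors it was between 4.61-fold higher for Vwf and 50.9-fold higher for Tie1, with a median over the genes of 17.7-fold. Pecam1 was at 12.26 in that tumor and at most 8.18 in the others, Kdr at 12.28 against at most 8.89, and Tek at 11.40 against at most 6.77 (log2). It was also above every other WT_sham tumor in 29 of 29 other endothelial genes, in 10 of 12 genes of pericytes and smooth muscle, the cells that wrap vessels, and in 7 of 10 genes of fibroblasts and matrix. Its epithelial genes had a mean level of 10.31, within the range of the other tumors of its group (8.47 to 12.59), and a median difference of -2.14 (log2) from their medians. Its 18S control, 11.95, was the fifth highest of the 9 arrays of its group, and its 3′ minus 5′ difference, 0.175, lay just below those of the other 8, 0.185 to 0.246. For each of the 10 genes the log2 fold change in wild-type hosts is given with it and without it.

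In heterozygote hosts 3 tumors lay at the ends. Het_irradiated replicate 23 was the highest of its group in 9 of 10 genes, all but Vwf, with a median of 7.62-fold over the other tumors of that group. Het_sham replicate 19 was the highest of its group in 8 of 10 genes, all but Flt1 and Vwf, with a median of 4.08-fold, and its array had an 18S control of 9.80 and a 3′ minus 5′ difference of 0.69. Het_sham replicate 52 was the lowest of its group in 9 of 10 genes, all but Vwf, at a median of 0.269 times the others. These tumors were picked for their values, so the folds describe them and were not tested.

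Host irradiation came with no called change in any endothelial gene. In each of the 4 comparisons, irradiated minus sham in heterozygote hosts, in wild-type hosts, the difference between these effects and their average, 0 of 10 genes passed limma's test at an adjusted p of 0.05, taken over all 12508 genes. Of all genes, 0% were called in heterozygote hosts, 0% in wild-type hosts, 0% in the difference and 0.00799%, 1 gene, in the average. At an unadjusted p under 0.05 the count was also 0 of 10 in each comparison, where 5.84%, 7.07%, 4.84% and 7.77% of all genes passed. The 95% intervals were wide: in heterozygote hosts they reached from -1.23 (Cd34) to 1.61 (Tek), and in wild-type hosts from -1.56 (Tek) to 0.61 (Cd34), on the log2 scale. Missing the threshold does not show that irradiation left these genes alike.

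**Figure D1:**
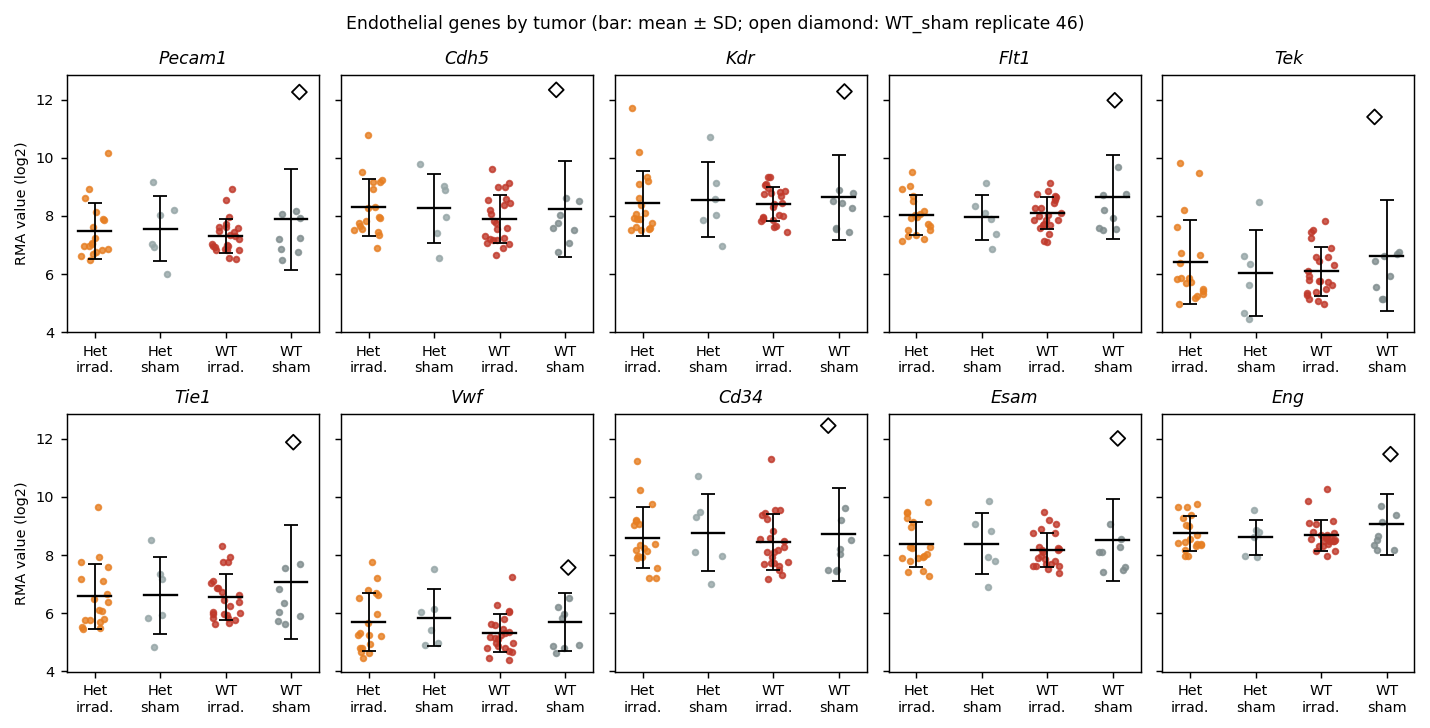
RMA values (log2, vertical axis) of the 10 endothelial genes in each tumor, in 1 panel per gene, by group: Het_irradiated (n = 18), Het_sham (n = 6), WT_irradiated (n = 23) and WT_sham (n = 9). Bars are the mean ± SD, and the open diamond marks WT_sham replicate 46, which lies above all other tumors of wild-type hosts in every panel. The irradiated and sham groups overlap in each gene and each host genotype.

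The adhesion genes come first. Pecam1 encodes PECAM1, or CD31, an adhesion protein at endothelial junctions that leukocytes and platelets also carry. Its lowest, median and highest log2 levels were 6.49, 7.04 and 10.17 in Het_irradiated tumors, against 5.99, 7.53 and 9.15 in Het_sham tumors, a log2 fold change of -0.07 (95% interval -1.02 to 0.87, limma adjusted p = 0.992). In wild-type hosts they were 6.52, 7.21 and 8.93 in irradiated and 6.47, 7.24 and 12.26 in sham hosts, a log2 fold change of -0.57 (95% interval -1.36 to 0.22, limma adjusted p = 0.829). The WT_irradiated tumors all lay within the range of the WT_sham tumors, and 11 of 23 were above the sham median, so the lower mean in irradiated hosts did not show as a shift of the middle of the groups. Cdh5, the gene of VE-cadherin, which joins endothelial cells to each other, had levels of 6.88, 7.94 and 10.78 in Het_irradiated and 6.55, 8.42 and 9.77 in Het_sham tumors (lowest, median, highest), and 6.66, 7.75 and 9.60 in WT_irradiated and 6.77, 7.76 and 12.33 in WT_sham tumors. Esam, an adhesion molecule of endothelial tight junctions, was at 7.28, 8.14 and 9.84 in Het_irradiated and 6.89, 8.38 and 9.87 in Het_sham tumors, and at 7.39, 8.11 and 9.50 in WT_irradiated and 7.43, 8.11 and 12.01 in WT_sham tumors. Medians of irradiated and sham hosts lay close together in wild-type hosts for both genes, while the irradiated heterozygote hosts had medians below those of sham hosts, with 6 of 18 tumors above the sham median for each gene. The log2 fold changes were 0.02 for Cdh5 and -0.03 for Esam in heterozygote hosts, and -0.35 and -0.34 in wild-type hosts. Without WT_sham replicate 46 the wild-type values were -0.03 for Pecam1, 0.16 for Cdh5 and 0.10 for Esam.

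KDR, or VEGF receptor 2, carries most of the growth signal of VEGF-A into endothelial cells. Kdr was at 7.50, 7.98 and 11.72 in Het_irradiated and 6.97, 8.31 and 10.71 in Het_sham tumors (lowest, median, highest), and at 7.43, 8.42 and 9.35 in WT_irradiated and 7.43, 8.44 and 12.28 in WT_sham tumors. The groups overlapped in both genotypes, and apart from replicate 46 no WT_sham tumor exceeded 8.89. Its log2 fold change was -0.12 (95% interval -1.06 to 0.83, limma adjusted p = 0.986) in heterozygote hosts and -0.24 (95% interval -1.03 to 0.55, limma adjusted p = 0.945) in wild-type hosts. FLT1, or VEGF receptor 1, binds VEGF-A tightly and in a soluble form keeps it from KDR. Flt1 had levels of 7.13, 7.95 and 9.52 in Het_irradiated and 6.85, 8.0 and 9.13 in Het_sham tumors, and of 7.10, 8.03 and 9.11 in WT_irradiated and 7.52, 8.21 and 11.98 in WT_sham tumors. Of the 10 genes it had the lowest p in wild-type hosts, with a log2 fold change of -0.56 (SE 0.31, unadjusted p = 0.0791, limma adjusted p = 0.742). Of the 23 WT_irradiated tumors, 10 exceeded the median of WT_sham tumors. In heterozygote hosts it was 0.07. Leaving out WT_sham replicate 46 gave -0.15 for Flt1 and 0.22 for Kdr in wild-type hosts. Flt1 had 4 probe sets, whose log2 fold changes were -0.56, -0.42, -0.52 and -0.47 in wild-type hosts and 0.07, -0.02, 0.18 and 0.16 in heterozygote hosts, and the chosen one correlated with the other 3 at r of 0.824 to 0.973 in heterozygote hosts (n = 24) and 0.927 to 0.981 in wild-type hosts (n = 32).

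TEK, also called TIE2, is the receptor of the angiopoietins. Tek levels were 4.98, 5.85 and 9.81 in Het_irradiated and 4.46, 5.97 and 8.46 in Het_sham tumors (lowest, median, highest), and 4.96, 5.78 and 7.83 in WT_irradiated and 5.13, 6.44 and 11.40 in WT_sham tumors. Its intervals were the widest of the 10 genes: its log2 fold change was 0.39 (95% interval -0.84 to 1.61, limma adjusted p = 0.972) in heterozygote hosts and -0.54 (95% interval -1.56 to 0.48, limma adjusted p = 0.897) in wild-type hosts. TIE1 has no well established ligand and modulates TEK. Tie1 had 5.45, 6.25 and 9.64 in Het_irradiated and 4.85, 6.56 and 8.51 in Het_sham tumors, and 5.64, 6.38 and 8.31 in WT_irradiated and 5.63, 6.37 and 11.88 in WT_sham tumors. In wild-type hosts 12 of 23 tumors of irradiated hosts were above the sham median of Tie1 and 7 of 23 above that of Tek. The log2 fold change of Tie1 was -0.03 in heterozygote and -0.52 in wild-type hosts, and without WT_sham replicate 46 the wild-type values turned to 0.08 for Tie1 and 0.06 for Tek.

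Eng encodes endoglin, a co-receptor of the TGF-beta and BMP family on endothelial cells. It varied least of the 10 genes by the width of its intervals. Its levels were 7.98, 8.50 and 9.77 in Het_irradiated and 7.94, 8.70 and 9.54 in Het_sham tumors (lowest, median, highest), and 7.96, 8.54 and 10.28 in WT_irradiated and 8.18, 8.66 and 11.47 in WT_sham tumors. The log2 fold change was 0.13 (95% interval -0.49 to 0.74, limma adjusted p = 0.979) in heterozygote hosts. In wild-type hosts it was -0.38 (95% interval -0.89 to 0.13, limma adjusted p = 0.819), and -0.08 without WT_sham replicate 46. Cd34, a surface sialomucin of endothelium that blood progenitors and some stromal cells also carry, was at 7.22, 8.29 and 11.23 in Het_irradiated and 7.0, 8.71 and 10.70 in Het_sham tumors, and at 7.19, 8.18 and 11.31 in WT_irradiated and 7.45, 8.19 and 12.45 in WT_sham tumors. Its log2 fold change was -0.17 in heterozygote hosts and -0.27 in wild-type hosts, 0.19 without WT_sham replicate 46. Both genes overlapped between irradiated and sham hosts. Vwf encodes von Willebrand factor, which endothelial cells and megakaryocytes store and release to bind platelets. It was at 4.45, 5.29 and 7.77 in Het_irradiated and 4.91, 5.74 and 7.54 in Het_sham tumors, and at 4.39, 5.19 and 7.23 in WT_irradiated and 4.64, 5.84 and 7.57 in WT_sham tumors. In wild-type hosts 4 of 23 tumors of irradiated hosts exceeded the sham median, the smallest number of the 10 genes, with a log2 fold change of -0.39 (95% interval -1.06 to 0.28, limma adjusted p = 0.879), -0.16 without WT_sham replicate 46. It was -0.14 in heterozygote hosts.

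All 10 log2 fold changes were negative in wild-type hosts, from -0.57 to -0.24 with a median of -0.39, where the median over all 12508 genes was -0.003 and 50.7% of genes were negative. The genes move together from tumor to tumor, so these are not 10 separate readings. Without WT_sham replicate 46 the median was 0.07 and 6 of the 10 were positive. In heterozygote hosts 4 were positive and 6 negative, with a median of -0.03, where 51.8% of all genes were positive. Leaving out Het_sham replicate 52 turned the median to -0.33, and leaving out Het_sham replicate 19 to 0.29. The effect in heterozygote hosts minus that in wild-type hosts was positive for all 10 (51.8% of all genes), from 0.11 (Cd34) to 0.92 (Tek) with a median of 0.43, and no gene was called (limma adjusted p = 0.999 for each). Without WT_sham replicate 46 the median of that difference was -0.08, with 4 genes positive. Averaged over host genotypes all 10 were negative (49.6% of all genes), from -0.32 to -0.07 with a median of -0.20, and the median without that tumor was 0.02.

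The 18S control was lower in WT_sham than in WT_irradiated tumors. Leaving out the 9 arrays with a value below 11 lowered the wild-type values of all members but Vwf, which went from -0.39 to -0.37. The median of the 10 genes was then -0.85, and 4 genes had an unadjusted p under 0.05, where 8.77% of all genes did. These were Pecam1 (-1.12), Flt1 (-0.93), Tie1 (-1.15) and Eng (-0.81), and none passed the adjusted test (lowest limma adjusted p = 0.447, for Eng). Only 5 WT_sham tumors, among them replicate 46, remained in that comparison. With the 18S control as a covariate and all tumors kept, the median was -0.18. The part of 18S in the result was not tested beyond these fits. The 3′ minus 5′ difference was higher in Het_sham than in Het_irradiated tumors. With it as a covariate all 10 genes were positive in heterozygote hosts, with a median of 0.26 (lowest limma adjusted p = 0.840). The effect in heterozygote hosts minus that in wild-type hosts then had a median of 0.69 (lowest limma adjusted p = 0.768). The part of RNA quality was not tested further.

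**Figure D2:**
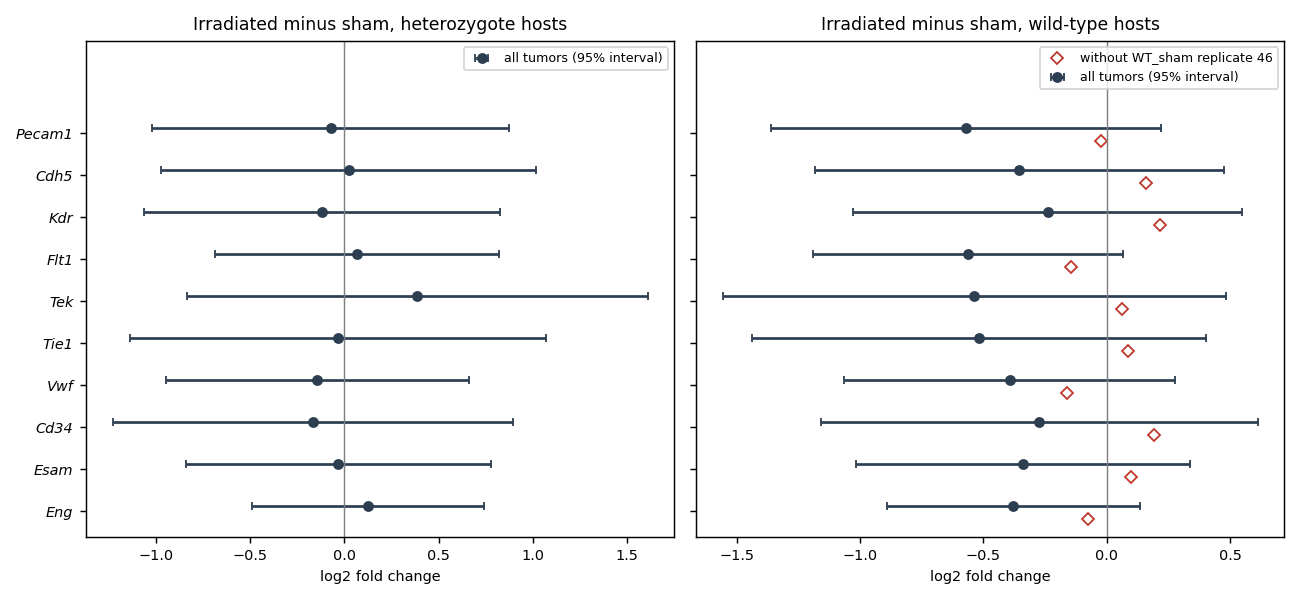
Log2 fold change (horizontal axis) of each endothelial gene, irradiated minus sham, in heterozygote hosts on the left and wild-type hosts on the right. Filled points with bars are limma estimates with 95% intervals over all tumors, and open diamonds are the wild-type estimates without WT_sham replicate 46. Every interval spans 0, and without that tumor the wild-type estimates lie between -0.16 and 0.22.

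Apart from irradiation, the endothelial genes varied together between tumors. Values were centred on the mean of their group, and each pair of genes was correlated over the 24 tumors of heterozygote hosts and the 32 of wild-type hosts apart. All 45 pairs had a positive Pearson's r in both genotypes, with a median of 0.803 in heterozygote hosts (range 0.214 to 0.977) and 0.892 in wild-type hosts (range 0.360 to 0.964). Median Spearman's rho was 0.833 and 0.844. In 38 of 45 pairs in heterozygote hosts and 36 of 45 in wild-type hosts, both r and rho passed two-sided tests by 100000 permutations within group, adjusted over the 90 pairs. For each pair r was also taken without the 2 tumors farthest from the median of 1 of its genes. Median r was then 0.727 in heterozygote and 0.804 in wild-type hosts. The tumors left out can differ between pairs and from those at the ends of their groups. Without the 4 tumors at the ends of their groups, 71 of the 90 pairs passed, against 74 with them, and median r was 0.708 and 0.795. The arrays of a host genotype share their normalization, the amount of epithelium varied between tumors, and a correlation over whole tumors does not say in which cells the genes vary.

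Pecam1, Cdh5 and Tie1 were among the most tightly correlated. Pecam1 and Tie1 had r = 0.977 in heterozygote hosts (rho = 0.960, permutation adjusted p = 1.7e-05, n = 24) and r = 0.964 in wild-type hosts (rho = 0.942, permutation adjusted p = 1.7e-05, n = 32), and 0.957 and 0.933 without the 2 tumors farthest from the median. Tek and Tie1, which form one receptor system, had r = 0.894 and 0.945. Kdr and Flt1, both VEGF receptors, had r = 0.629 (rho = 0.667) in heterozygote hosts and 0.870 (rho = 0.761) in wild-type hosts. Without the 2 tumors farthest from the median of Kdr, r was 0.494 and 0.703. Flt1 was the looser of the pair in heterozygote hosts, with a median r of 0.671 over its 9 pairs against 0.896 for Kdr, and 0.854 against 0.914 in wild-type hosts. Whether r differs between the host genotypes was not tested.

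Vwf had the lowest correlations of the 10 genes. Its median r over 9 pairs was 0.378 in heterozygote hosts and 0.428 in wild-type hosts, and 2 and 0 of 9 pairs passed with both r and rho, those with Cd34 and Eng in heterozygote hosts. In each other member 8 or 9 of 9 pairs passed. Its probe set exceeded the overall median on 19 of 56 arrays. Its r with the 18S control was -0.37 in heterozygote and -0.48 in wild-type hosts (permutation adjusted p = 0.158 and 0.0834 over 40 relations), and no member passed against 18S. Whether its low signal accounts for its low correlation was not tested. The 3′ minus 5′ difference passed by Pearson's r in heterozygote hosts with Cdh5 (r = 0.614), Kdr (0.637) and Tie1 (0.607), each with a permutation adjusted p of 0.0435, but rho did not pass (permutation adjusted p from 0.212 to 0.229).

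**Figure D3:**
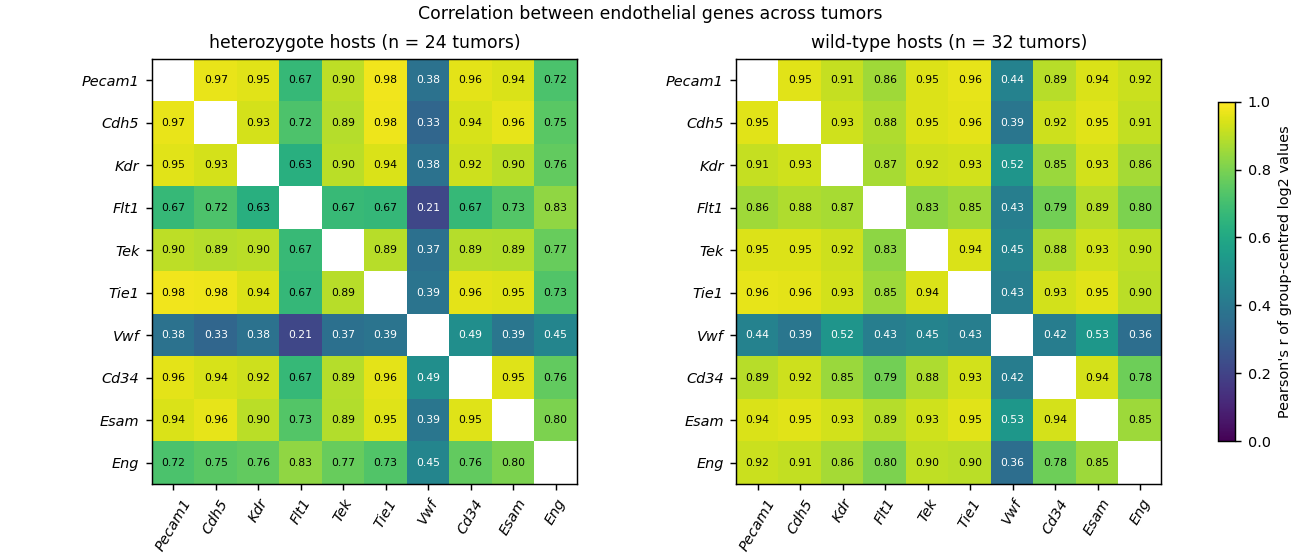
Pearson's r (colour scale and printed values) between group-centred log2 values of each pair of endothelial genes, over 24 tumors of heterozygote hosts on the left and 32 tumors of wild-type hosts on the right. The row and column of Vwf hold the lowest values, from 0.21 to 0.53, and Flt1 is lower in heterozygote than in wild-type hosts for 8 of its 9 pairs.

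Scores of other cell types, each the mean of the centred log2 values of its marker genes, were correlated with the 10 genes, giving 140 relations in all with p adjusted over them. A relation was counted where both r and rho passed the permutation test. All 10 genes passed against the score of pericytes and smooth muscle (12 genes) in both genotypes, with a median r of 0.673 in heterozygote hosts (n = 24) and 0.696 in wild-type hosts (n = 32). The 12 genes were not alike: the lower of their r with the endothelial mean in the host genotypes had a median of 0.370, from 0.783 for Pdgfrb and 0.747 for Rgs5, genes of pericytes, to -0.01 for Notch3 and -0.04 for the smooth muscle myosin gene Myh11. The score of megakaryocytes and platelets (6 measured genes, among them Pf4 and Gp9) had a median r of 0.751 and 0.795, with 10 and 9 genes passing. Its genes were not alike either: by the same measure Ppbp had 0.701 and Pf4 0.657, but Gp9 0.174 and Gp1bb -0.15, with a list median of 0.489. Lymphatic endothelial markers, of which 3 of 6 were measured (Lyve1, Pdpn and Reln), had 0.650 and 0.714, with 7 and 10 genes. By that measure Lyve1 had 0.769, Pdpn 0.492 and Reln 0.308. Fibroblast and matrix genes had 0.725 and 0.607, with 9 and 8 genes. By that measure Thy1 had 0.802, but Lum 0.224 and Postn 0.199, with a list median of 0.461.

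Values for other cell types were lower. Leukocyte and macrophage genes had a median r of 0.457 in heterozygote hosts and 0.379 in wild-type hosts, with 2 and 3 of the 10 endothelial genes passing, and adipocyte genes 0.214 and 0.108, with 0 and 0. The epithelial score ran against the endothelial genes, with a median r of -0.504 in heterozygote hosts, where 4 genes passed (Pecam1, Cdh5, Cd34 and Esam), and -0.453 in wild-type hosts, where 0 passed. Vwf correlated with the fibroblast score at r = 0.625 in heterozygote hosts (rho = 0.719, permutation adjusted p = 0.0035) and r = 0.558 in wild-type hosts (rho = 0.530, permutation adjusted p = 0.0046). Over all tumors these values were above its r with each of the 9 other endothelial genes. Without the 2 tumors farthest from the median of the score, r with the score was 0.532 and 0.552. In heterozygote hosts the r of Vwf with Cd34 was higher, at 0.651, without the 2 tumors farthest from the median of Vwf. The tumors left out can differ between these relations. Over all lists 82 of 140 relations passed, and 51 without the 4 tumors at the ends of their groups. Without them 6 genes in heterozygote and 7 in wild-type hosts passed against pericytes and smooth muscle (median r 0.519 and 0.473), and 6 and 6 against megakaryocytes and platelets (0.580 and 0.549). The lymphatic score had 4 and 6 passing relations (0.492 and 0.535), and the fibroblast and matrix score 7 and 7 (0.621 and 0.551). Against leukocytes and macrophages 0 and 0 passed (0.347 and 0.396), against adipocytes 0 and 0 (0.07 and -0.20), and against the epithelial score 2 and 0 (-0.603 and -0.506). Genes of the lists are not exclusive to their cell type, and whether differences between the lists' r exceed their error was not tested.

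**Figure D4:**
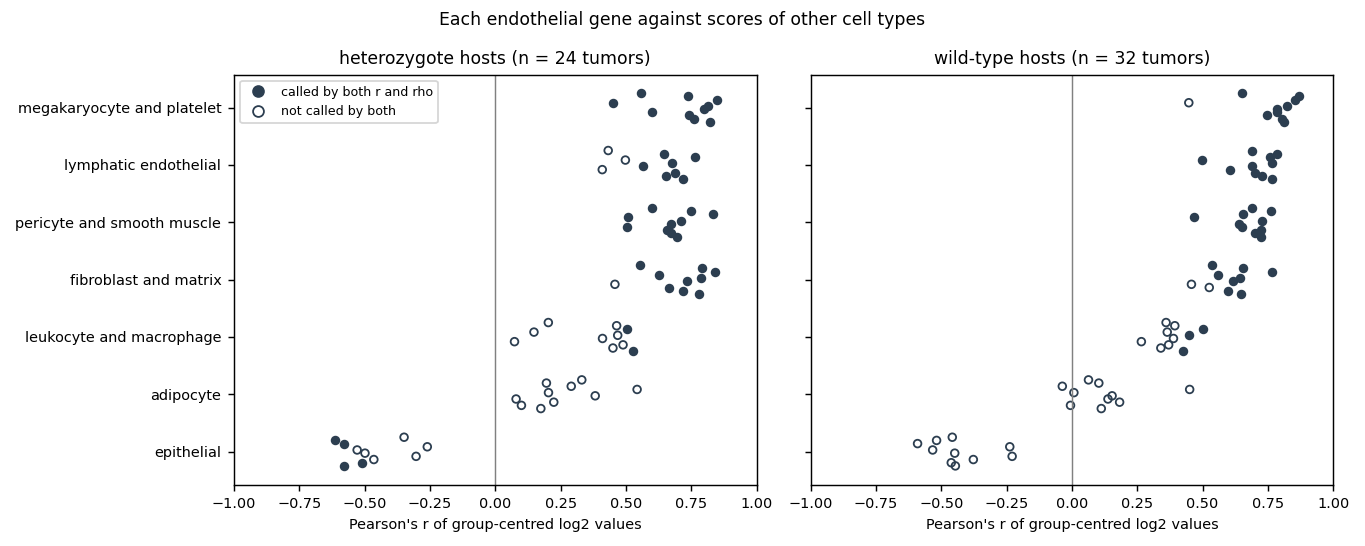
Pearson's r (horizontal axis) between each of the 10 endothelial genes, 1 point each, and the scores of 7 other cell types, in heterozygote hosts (n = 24 tumors) on the left and wild-type hosts (n = 32) on the right. Filled points passed the permutation test with both r and rho, open points did not. Points for platelet, lymphatic, pericyte and fibroblast scores lie from 0.41 to 0.87, and those for the epithelial score from -0.61 to -0.23.

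Which other genes followed the endothelial genes was read from their r with the mean centred value of the 10, taking the lower of the values in the host genotypes (n = 24 and 32 tumors). These are descriptions with no test. The 10 genes of highest likeness outside the set were Sox18 (0.968), Mmrn2 (0.964), Robo4 (0.959), Rasip1 (0.958), Gimap6 (0.953), Nos3 (0.953), Fam167b (0.952), Erg (0.951), Rasgrp3 (0.950) and Cyyr1 (0.948). Sox18 and Erg encode transcription factors of endothelial cells, Robo4 a receptor of the vessel wall and Nos3 the endothelial nitric oxide synthase. Among all 12508 genes, with each member set against the mean of the other 9, Pecam1 ranked 3, Tie1 4, Esam 7, Cdh5 8, Kdr 19, Cd34 36, Tek 37, Eng 87, Flt1 196 and Vwf 1234. Of the 29 measured genes of a list of other endothelial genes, 20 were among the 100 of highest likeness, and the median of that list was 0.916, against -0.16 over all genes. Without the 4 tumors at the ends, 24 of the first 30 genes stayed among the first 30. Flt1 then fell to rank 422 (0.557) and Vwf to 2596 (0.171), while the other members ranked from 2 (Esam) to 111 (Eng).

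Ligands and receptors of the pathway had unlike values. Vegfa, the main growth factor read by KDR and FLT1, had r of -0.08 with the endothelial mean in both heterozygote and wild-type hosts, and Vegfb had -0.56 and -0.46. Angpt2, an angiopoietin made by endothelial cells, had 0.598 and 0.718, and Angpt1, made mostly by the cells around them, 0.503 and 0.283. Flt4, the VEGF-C receptor, had 0.898 and 0.925, and Nrp1, a co-receptor of VEGF, 0.872 and 0.815. In the list of endothelial TGF-beta and BMP genes the highest likeness was that of Tgfb1 itself, with 0.669 and 0.824, rank 262. Id2, a target of BMP signals, had the lowest of that list, with -0.40 and -0.47. The related genes were not like it: Id1 had -0.09 and 0.38, and Id3 had 0.365 and 0.668. Of genes that mark vessel type or the growing tip, the apelin receptor Aplnr had 0.927 and 0.887, the Notch ligand Dll4 0.731 and 0.817 and the tip cell gene Esm1 -0.22 and 0.26. Over the 14 measured genes of that list the lower value had a median of 0.451, and was lowest for Hey1 at -0.34. Of the 14, 1 was among the 100 genes of highest likeness.

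**Figure D5:**
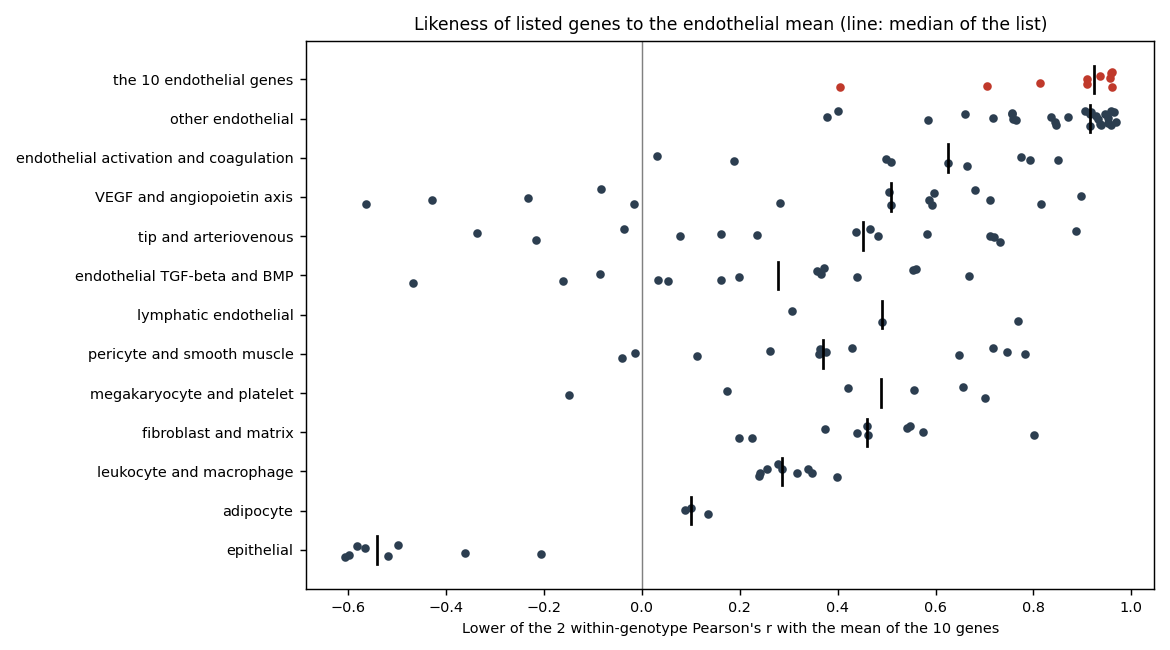
Likeness (horizontal axis, the lower of 2 within-genotype values of Pearson's r with the mean of the 10 endothelial genes) of every measured gene of each list, 1 point per gene, with a line at the median of the list. Each of the 10 genes is set against the mean of the other 9. The medians are 0.923 for the 10 genes, 0.916 for other endothelial genes and -0.54 for epithelial genes.

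The other genes of the vessel also had no called change with host irradiation. Among 29 other endothelial genes 0 were called and 0 had an unadjusted p under 0.05 in any of the 4 comparisons; 28 of 29 were lower in irradiated than in sham wild-type hosts, with a median log2 fold change of -0.32, and without WT_sham replicate 46 that median was 0.17 with 5 of 29 lower. In heterozygote hosts the median was 0.01. Of the VEGF and angiopoietin genes, 15 of 15 measured, 0 were called, and 2 had an unadjusted p under 0.05 in wild-type hosts, where 7.07% of all genes did. These were Vegfb at -0.37 (limma adjusted p = 0.654) and Pgf, placental growth factor, at -1.05 (limma adjusted p = 0.644), and without WT_sham replicate 46 they were at -0.46 and -0.76. Adm, the peptide adrenomedullin, which acts on endothelium, was at -0.54 in heterozygote hosts and -0.69 in wild-type hosts, with an unadjusted p of 0.0353 for the average (limma adjusted p = 0.600); without WT_sham replicate 46 the wild-type value was -0.41.

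In the list of TGF-beta and BMP genes of the endothelium (14 of 15 measured) Id2 had the lowest p of the average, with a log2 fold change of 0.71 in heterozygote hosts and 0.31 in wild-type hosts (limma adjusted p = 0.746 and 0.855). Among genes of endothelial activation and coagulation (9 of 12 measured) Selp, which encodes P-selectin and is also made by platelets, was at 0.03 in heterozygote hosts and -0.67 in wild-type hosts (limma adjusted p = 0.995 and 0.705). Nr2f2, which specifies veins, was at -0.23 in heterozygote hosts and -0.38 in wild-type hosts. Without WT_sham replicate 46 the wild-type values were 0.20 for Id2, -0.24 for Selp and -0.08 for Nr2f2. The lymphatic marker Lyve1, which some macrophages share, was at 0.07 in heterozygote hosts (limma adjusted p = 0.995) and -1.74 in wild-type hosts (unadjusted p = 0.00346, limma adjusted p = 0.492), and the platelet chemokine gene Pf4 at -0.10 (limma adjusted p = 0.990) and -1.21 (unadjusted p = 0.00562, limma adjusted p = 0.502). Without WT_sham replicate 46 the wild-type values were -1.05 for Lyve1 and -0.97 for Pf4. Each was the lowest of its list in wild-type hosts. The medians of the lymphatic list were -0.08 in heterozygote and -0.15 in wild-type hosts, and those of the megakaryocyte and platelet list 0.04 and -0.16. Without that tumor the wild-type medians were 0.03 and 0.00014. The pericyte and smooth muscle list had a median of -0.04 in heterozygote hosts and -0.15 in wild-type hosts, and the fibroblast and matrix list of -0.50 and -0.25, with 0 genes called. Without WT_sham replicate 46 the wild-type median turned to 0.04 for pericytes and smooth muscle, with 2 of 12 genes negative against 10 with it, and was -0.09 for fibroblasts and matrix, with 8 of 10 negative in both fits. Of the leukocyte, adipocyte and epithelial lists, too, 0 genes were called in any comparison. In heterozygote hosts their medians were 0.22, 0.73 and 0.46, with 9 of 9, 3 of 3 and 8 of 8 genes positive. There 51.8% of all genes were positive. In wild-type hosts they were 0.03, -0.42 and 0.09, with 5 of 9, 0 of 3 and 5 of 8 positive. Without WT_sham replicate 46 the wild-type medians were 0.08, -0.17 and -0.11.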

How the data were processed

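Total RNA of 56 tumors, 100 ng each, was hybridised to Affymetrix 3′ IVT arrays, per the labels' protocols. The authors deposited log2 values per probe set that they had made with RMA, per the submitters' processing notes, which name no version. RMA corrects background, quantile normalizes and summarizes probes, and can compress differences of dim probe sets. Array medians differ between host genotypes, so levels were compared within a genotype.

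The platform annotation gave 34958 of 45101 probe sets 1 symbol, which were used, several to 932 and none to 9211. Symbols were updated through GRCm38.p6, which matched 12467 of 12508 genes. Kept probe sets exceeded the median of the whole table on 6 or more arrays, and the one of highest mean stood for its gene. limma 3.58.1 (R 4.3.3) estimated 4 group means from all arrays, with empirical Bayes moderation and Benjamini-Hochberg adjustment over all genes at 0.05.

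Correlations used values centred on group means within a host genotype, with 100000 permutations within group (Python 3.11.15, numpy 2.4.6), where the smallest possible p is 1e-05. They were adjusted over 90 pairs, 140 relations with scores and 40 with RNA controls. Besides the 10 genes, the text names the 10 genes of highest likeness and, in each list, genes among the 3 of lowest p for the average effect. Other list genes named, Pgf and Selp among them, were chosen after their values were seen. The 10 genes and all lists were chosen with earlier results of these data known.

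Groups came from the labels, which give no batch or date and do not tie tumors to host mice, so p-values reflect only the variation among these tumors. No 2 columns were identical (highest correlation of 2 arrays 0.9903). Tests were checked on simulated data, with 200 of 12508 genes changed, in 5 simulations. limma recovered 75.2% of genes changed 2-fold in heterozygote hosts, where 5.48% of calls were false, and 82.4% in wild-type hosts, where 9.14% were. No such rate was estimated for the endothelial genes alone. Their limma standard errors (log2) ran from 0.26 (Eng) to 0.51 (Tek) in wild-type hosts and from 0.31 (Eng) to 0.61 (Tek) in heterozygote hosts. The rates therefore do not say how often a 2-fold change of an endothelial gene would be called.

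Alternatives were no filter and a stricter one (28 arrays), every probe set, the second brightest probe set for correlations, quantile normalization of all arrays together, median centring, trended and robust moderation, array weights, only the groups compared, the 18S or the 3′ minus 5′ control as a covariate, arrays of low 18S left out, uncentred values and each array left out. Fits without the 4 tumors at the ends of their groups, and correlations with the RNA controls, were added after seeing the data.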

Additional observations from a re-analysis of the deposited data

Results flagged for a closer look

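In 9 of the 10 endothelial genes, all but Vwf, WT_sham replicate 46 lay farther above the next tumor of its group than Dixon's criterion allows for 9 tumors (a gap over 0.493 of the group's range). Of 20 combinations of gene and sham group tested, 9 were marked, all of this tumor; chance marks about 1 in 20, and the 9 share a tumor and are not separate events. Its log2 levels, with the next highest of the group, were 12.26 and 8.18 for Pecam1, 12.33 and 8.60 for Cdh5, and 12.01 and 9.08 for Esam. They were 12.28 and 8.89 for Kdr, 11.98 and 9.69 for Flt1, 11.40 and 6.77 for Tek, and 11.88 and 7.69 for Tie1. Eng was at 11.47 against 9.70 and Cd34 at 12.45 against 9.61. The irradiated groups hold more than 10 tumors and were not examined in this way.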

How the results depend on the processing

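No endothelial gene was called by limma in any of 2636 values under the alternatives (lowest adjusted p = 0.447, Eng in wild-type hosts without the arrays of low 18S), but directions were not stable. With the 18S control as a covariate, log2 fold changes of opposite sign were 0.078 (Kdr), 0.11 (Vwf) and 0.055 (Cd34) in wild-type hosts and 0.021 (Tie1) and 0.026 (Esam) in heterozygote hosts. In the difference they were -0.15 (Cd34), -0.14 (Vwf) and -0.13 (Kdr), and in the average 0.037 (Vwf), 0.13 (Tek) and 0.015 (Kdr). With the 3′ minus 5′ control they were 0.25 (Esam), 0.18 (Cd34), 0.16 (Pecam1), 0.27 (Kdr), 0.20 (Vwf) and 0.30 (Tie1) in heterozygote hosts, and 0.088 (Tek), 0.015 (Kdr) and 0.018 (Cdh5) in the average. With array weights they were -0.19 (Cdh5) and -0.045 (Flt1) in heterozygote hosts, and -0.18 (Cd34), -0.0029 (Tie1), -0.27 (Kdr), -0.075 (Cdh5) and -0.15 (Vwf) in the difference. Without the arrays of low 18S they were 0.21 (Tie1), 0.12 (Cd34), 0.19 (Kdr), 0.15 (Esam) and 0.13 (Pecam1) in heterozygote hosts, and another Flt1 probe set gave -0.017 there. These are 33 of 396 values; the cause was not tested.

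With each array left out, 66 of 2240 values changed sign. In wild-type hosts the ranges were -0.54 to 0.16 (Cdh5), -0.39 to 0.22 (Kdr), -0.72 to 0.060 (Tek), -0.70 to 0.084 (Tie1), -0.43 to 0.19 (Cd34) and -0.48 to 0.097 (Esam), the upper end without WT_sham replicate 46. In heterozygote hosts they were -0.39 to 0.25 (Pecam1), -0.32 to 0.32 (Cdh5), -0.44 to 0.31 (Kdr), -0.15 to 0.30 (Flt1), -0.39 to 0.35 (Tie1), -0.33 to 0.19 (Vwf), -0.52 to 0.22 (Cd34), -0.33 to 0.26 (Esam) and -0.0097 to 0.31 (Eng), the lower end without Het_sham replicate 52 for all but Vwf and the upper end without Het_sham replicate 19 for all but Flt1 and Vwf. In the difference they were -0.048 to 0.82 (Pecam1), -0.14 to 0.68 (Cdh5), -0.33 to 0.55 (Kdr), -0.12 to 0.86 (Tie1), -0.36 to 0.50 (Cd34) and -0.13 to 0.60 (Esam), the lower end without WT_sham replicate 46. In the average they were -0.34 to 0.090 (Cdh5), -0.34 to 0.048 (Kdr), -0.23 to 0.22 (Tek), -0.45 to 0.025 (Tie1), -0.40 to 0.013 (Cd34), -0.34 to 0.033 (Esam) and -0.19 to 0.024 (Eng), the upper end without WT_sham replicate 46.

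Over all genes the average effect gave 1 call, 19 with array weights, 0 with either covariate and 0 to 2 with an array left out. Of 90 pairs, 71 to 76 passed under the alternatives run. Relations with cell type scores, 82 of 140, were 51 without the 4 tumors at the ends of their groups, an alternative chosen after seeing the data, 55 without the arrays of low 18S and 68 to 88 with an array left out; the first 2 hold fewer tumors. Signal over background per probe was not analysed here, so what dim probe sets such as that of Vwf could show is not known. No paired analysis was possible because replicate numbers do not recur across groups.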
